A study of Mus musculus with 24 samples.

Results

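Microglia, the resident macrophages of the brain, were followed in hippocampal RNA through 9 genes that mark them: Cx3cr1, P2ry12, Tmem119, Csf1r, Aif1, Trem2, C1qa, C1qb and C1qc. The members were the rows of the count table whose Ensembl identifiers map to these symbols, and all 9 were found among the 55471 rows of the table, with 1 row for each symbol. All 9 passed the filter on low counts in every comparison. Averaged over both housings, Cx3cr1 and Csf1r fell slightly in mice that had lost CBP, the other 7 genes did not pass the test, and no member passed it for housing.

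The study asked how the loss of CBP, the acetyltransferase encoded by Crebbp, affects hippocampal transcription and its response to environmental enrichment (EE). RNA of the whole hippocampus was sequenced from 12 female C57BL/6 mice aged 3 to 6 months, with 3 mice in each of 4 groups: Control SC, CBP-ifKO SC, Control EE and CBP-ifKO EE, where SC is the standard cage. CBP-ifKO mice carry floxed Crebbp alleles and the Camk2a-creERT2 transgene, controls are littermates without that transgene, and all 12 mice received tamoxifen (20 mg/mL) in 5 administrations. The driver restricts recombination to forebrain excitatory neurons, so microglia of CBP-ifKOs lie outside its target, and controls do not account for the presence of the transgene itself. Crebbp checked the labels, with 69.6 to 81.9 CPM (counts scaled by library totals that were corrected by TMM factors) in the 6 controls and 44.5 to 51.5 in the 6 CBP-ifKOs. Its residual level is measured in a tissue in which interneurons, glia and vessels also express it.

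Microglia arise in the yolk sac and persist in the brain by local renewal, for which signaling through CSF1R is required. They survey the tissue with motile processes and sense neurons through receptors such as CX3CR1, which binds neuronal fractalkine, and P2RY12, which detects ADP. They also make most of the C1q of the brain, the recognition protein that starts the classical complement pathway and tags synapses for removal.

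In bulk tissue, fewer microglia and less RNA per microglial cell cannot be told apart. The labels call the tissue hippocampus, and all 9 microglia genes were detected in every mouse, from 108 counts of Aif1 in 1 Control EE mouse to 3612 counts of Csf1r in 1 CBP-ifKO SC mouse. Library totals lay between 26874015 and 27971488 counts in controls and between 28582210 and 37448388 in CBP-ifKOs. Every one of 148570 nonzero CBP-ifKO counts was even, while controls had 86334 odd counts among 158233, so that genotype cannot be told apart from whatever made those counts even. Control EE replicate 1 stood apart by choroid plexus genes, whose summed level was 1252 CPM there and 35.6 to 62.9 CPM in the other 11 libraries. A level of 3 counts, taken as the floor of detection, equaled 0.107 to 0.112 CPM in controls, which covers counting error only. What 1 count stands for in the CBP-ifKO libraries is not known, and halving their counts would put their totals at 14291105 to 18724194. The TMM factors were 0.965 to 0.991 in controls and 1.01 to 1.03 in CBP-ifKOs.

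Per base of counted transcript, the complement subunits C1qb and C1qa led the members and Trem2 came last. Mean FPKM (CPM divided by the counted length in kilobases) over the 12 mice was 33.5 ± 2.70 (SD, n = 12) for C1qb and 31.5 ± 3.40 for C1qa. These neighbors overlapped, and C1qb was the higher of them in 8 of 12 mice. P2ry12 followed at 17.8 ± 1.16, C1qc at 17.0 ± 1.41 and Csf1r at 16.8 ± 1.05 FPKM, and the ranges of these 3 overlapped as well. Cx3cr1 at 11.5 ± 0.989 and Tmem119 at 8.0 ± 0.839 FPKM each lay apart from both neighbors in the order, in all 12 mice. Aif1 had 3.36 ± 0.523 and Trem2 2.68 ± 0.162 FPKM, with overlapping ranges and Aif1 higher in 11 of 12 mice. The 3 C1q genes thus did not stand at 1 level: C1qc lay below C1qa and C1qb in this measure, which depends on the length the authors' counting assigned to each gene (1040 bases for C1qa, 1088 for C1qb, 1931 for C1qc).

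The C1q genes also lie next to each other on chromosome 4 of GRCm38, all on the minus strand: C1qb at 136880129 to 136886187, C1qc at 136889804 to 136893065 and C1qa at 136895917 to 136898803. The other members are spread over chromosomes 3, 5, 9, 17 and 18, with Aif1 (35170991 to 35176068) and Trem2 (48346401 to 48354147) both on chromosome 17. Cx3cr1 spans 119901616 to 120069879 of chromosome 9 and shares exonic sequence with the antisense gene Gm33858. P2ry12 (chromosome 3, 59216272 to 59262871) shares exonic sequence with Med12l on the opposite strand, and Csf1r with Hmgxb3. Csf1r lies 112 kb past the end of Camk2a, the locus whose promoter drives the transgene. Camk2a itself was at 4156 ± 141 CPM in controls and 4054 ± 282 in CBP-ifKOs (SD, n = 6), and neither Slc6a7 and Pdgfrb, which lie between them, nor Hmgxb3 passed the test of genotype (log2 fold changes -0.0018, -0.081 and 0.12). Only genes on the Csf1r side of Camk2a were looked at here. The paper reports a rise in CBP-ifKOs of Arsi, a neighbor of the Camk2a promoter that the driver construct carries. Whether counting used the strand is not given in the sources used here, so reads in these shared stretches cannot be assigned with certainty. All 9 are annotated as protein coding.

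Promoter sequences are shown for C1qb, a C1q gene that lay lower in CBP-ifKOs without passing the test, and for Trem2, which had the smallest genotype difference. Each is the RefSeq sequence (GRCm38.p6) of the 250 bases before the start that RefSeq gives the gene, written 5′ to 3′ on the gene's own strand. RefSeq and GENCODE place the start of Trem2 at the same base and that of C1qb 13 bases apart. RefSeq windows were matched for 6 of the 9 members, and the other 4 of these windows overlap exons in GENCODE and are not shown. Capitals mark the core motif of PU.1, the ETS factor that defines myeloid cells, searched as GAGGAAG on both strands.
C1qb (chr4:136886201-136886450, minus strand): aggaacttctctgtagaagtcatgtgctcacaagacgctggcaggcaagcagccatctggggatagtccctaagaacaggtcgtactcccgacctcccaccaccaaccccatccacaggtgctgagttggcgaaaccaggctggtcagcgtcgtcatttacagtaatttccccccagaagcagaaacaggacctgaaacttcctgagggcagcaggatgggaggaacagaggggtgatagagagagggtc
Trem2 (chr17:48346151-48346400, plus strand): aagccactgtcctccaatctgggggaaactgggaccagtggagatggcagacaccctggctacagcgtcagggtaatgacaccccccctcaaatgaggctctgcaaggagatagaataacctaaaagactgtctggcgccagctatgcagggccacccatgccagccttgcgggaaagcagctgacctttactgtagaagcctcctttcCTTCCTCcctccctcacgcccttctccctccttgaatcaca
The core occurred once in Trem2, starting at position -41 relative to the gene's start, on the strand opposite to the gene, and the letters are not in the C1qb window. Of the 6 windows searched 2 held it, the other being that of C1qc. Of 32851 promoters of this length, 10.6% held the motif, so its presence in Trem2 is a description only.

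**Figure D1:**
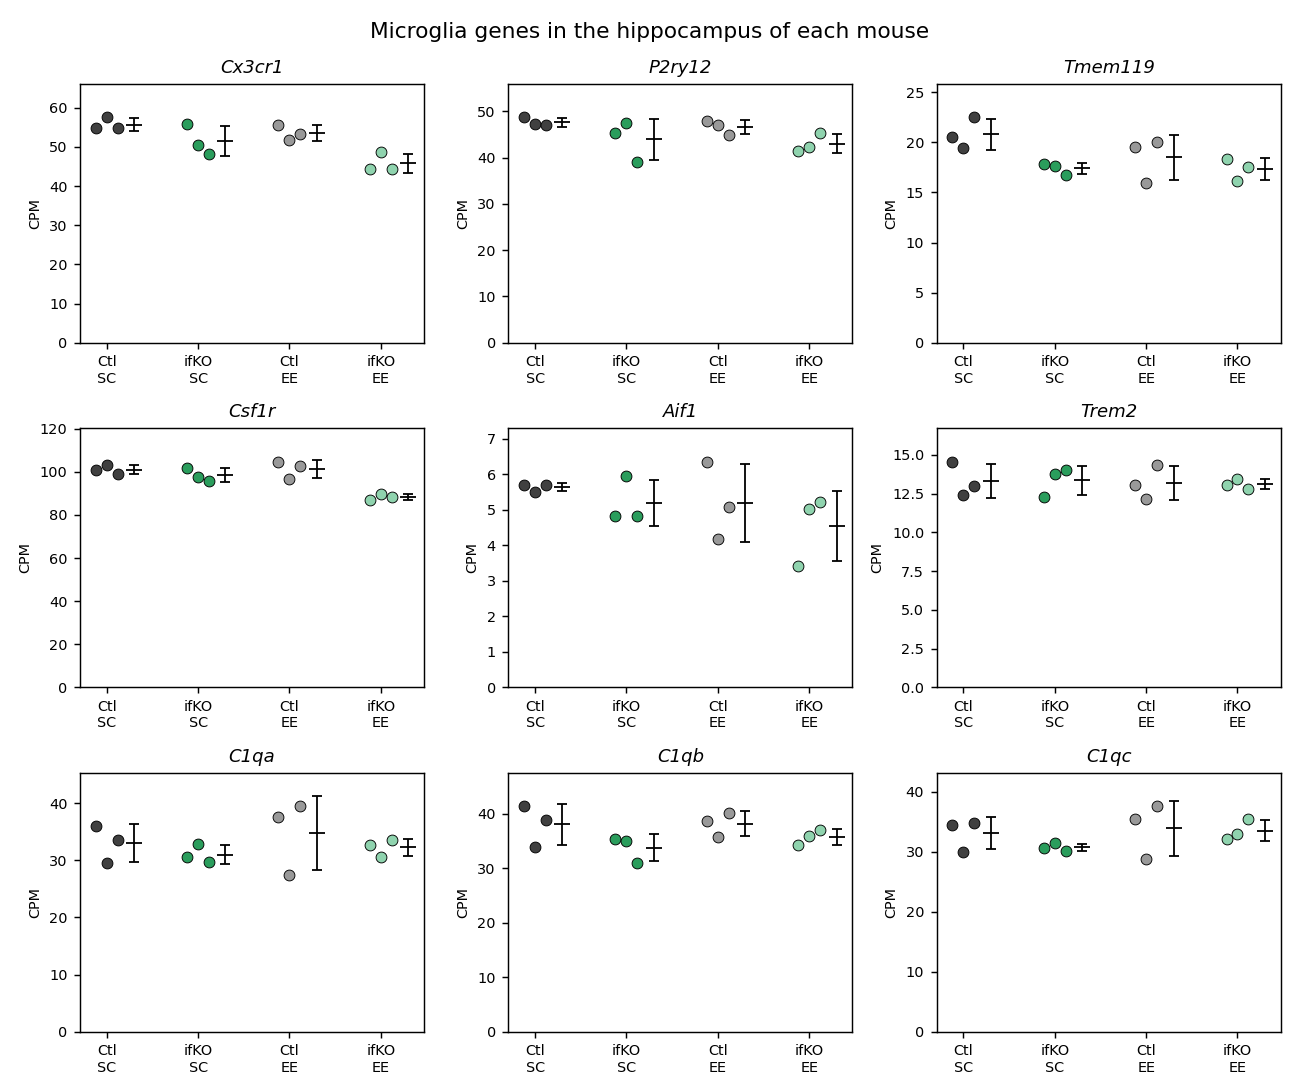
CPM (TMM scaled, linear axes from 0) of each microglia gene in each mouse of the 4 groups, with circles for mice and black bars for the mean ± SD of 3 mice. All 3 CBP-ifKO EE mice lie below all 3 Control EE mice for Cx3cr1 and Csf1r, and all 3 CBP-ifKO SC mice lie below all 3 Control SC mice for Tmem119, whereas Trem2 sits between 12.2 and 14.5 CPM throughout.

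Cx3cr1, the fractalkine receptor, fell in CBP-ifKOs. It measured 54.8, 57.5 and 54.8 CPM in Control SC mice, 55.7, 50.5 and 48.2 in CBP-ifKO SC mice, 55.6, 51.7 and 53.2 in Control EE mice, and 44.4, 48.6 and 44.3 in CBP-ifKO EE mice. Of the 6 CBP-ifKO mice, 5 lay below every control, and the sixth, in SC, lay within the control range. Averaged over housings the log2 fold change was -0.17 (standard error 0.05, 95% interval -0.27 to -0.07, adjusted p = 0.0170 by edgeR's quasi-likelihood test).

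Csf1r, the receptor on which microglial survival depends, also fell. It had 101, 103 and 99.1 CPM in Control SC mice, 102, 97.7 and 95.6 in CBP-ifKO SC mice, 105, 96.5 and 103 in Control EE mice, and 86.8, 89.7 and 88.3 in CBP-ifKO EE mice. The EE genotypes did not overlap, while the SC genotypes did, and 4 of 6 CBP-ifKO mice lay below every control. The averaged log2 fold change was -0.12 (standard error 0.04, 95% interval -0.20 to -0.04, adjusted p = 0.0356). These 2 were the only members past the threshold in this comparison, 2 of 9, against 10.3% of the 18251 genes tested that fell and 16.9% that were called in either direction. Of the 9 members 9 had an averaged log2 fold change below 0, though C1qc and Trem2 lay above 0 with library totals only. The median of the 9 was -0.12 against 0.00 over all genes, and with library totals -0.056 against 0.066.

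Each call rests on the scaling. With library totals and no TMM factors, the median log2 fold change of all genes moved from 0.00 to 0.07, the calls changed from 1211 risen and 1871 fallen genes to 2937 risen and 1275 fallen, and neither member passed (Cx3cr1 -0.11, adjusted p = 0.0949, Csf1r -0.06, adjusted p = 0.298). Cx3cr1 also lost its call without CBP-ifKO SC replicate 3 (-0.15, adjusted p = 0.0510). Csf1r kept it without CBP-ifKO SC replicate 1, Control EE replicate 2 or CBP-ifKO EE replicate 2 and lost it in the other 9 of the 12 fits that left out 1 mouse, with adjusted p up to 0.0913, among them the fit without Control EE replicate 1 (-0.11, adjusted p = 0.0864), and in the fit without a filter on low counts (adjusted p = 0.0632).

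The remaining homeostatic markers lay below the controls on average and did not pass the test. P2ry12, the ADP receptor that steers microglial processes, had 48.7, 47.1 and 47.0 CPM in Control SC mice, 45.4, 47.4 and 39 in CBP-ifKO SC mice, 47.8, 47.1 and 44.8 in Control EE mice, and 41.5, 42.2 and 45.3 in CBP-ifKO EE mice. The genotypes overlapped in both housings, and the averaged log2 fold change was -0.12 (95% interval -0.22 to -0.01, adjusted p = 0.123). Tmem119, a surface protein that separates microglia from blood-derived macrophages, had 20.5, 19.4 and 22.5 CPM in Control SC mice, 17.8, 17.6 and 16.8 in CBP-ifKO SC mice, 19.5, 15.9 and 20.1 in Control EE mice, and 18.4, 16.2 and 17.6 in CBP-ifKO EE mice. Its SC genotypes were separate and its EE genotypes overlapped, since Control EE replicate 2 was the lowest of all 12 mice. The averaged log2 fold change of Tmem119 was -0.18 (95% interval -0.32 to -0.04, adjusted p = 0.0804), and -0.22 (adjusted p = 0.0153) without that mouse.

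Aif1 encodes IBA1, the calcium-binding protein commonly stained to show microglia, and was the member with the widest spread. It had 5.71, 5.51 and 5.69 CPM in Control SC mice, 4.84, 5.95 and 4.82 in CBP-ifKO SC mice, 6.35, 4.17 and 5.08 in Control EE mice, and 3.41, 5.01 and 5.22 in CBP-ifKO EE mice. Both pairs of genotypes overlapped, and the averaged difference of -0.16 on the log2 scale had a 95% interval of -0.43 to 0.11 (adjusted p = 0.441). Its coefficient of variation within groups was 16.4%, against 2.99% for Csf1r, the member with the most counts.

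Trem2, the lipid-sensing receptor that drives the reactive program of microglia, gave the smallest genotype difference of the members. It had 14.5, 12.4 and 13 CPM in Control SC mice, 12.2, 13.8 and 14.0 in CBP-ifKO SC mice, 13, 12.2 and 14.4 in Control EE mice, and 13.1, 13.4 and 12.8 in CBP-ifKO EE mice. The 4 groups overlapped, and the averaged log2 fold change had a 95% interval of -0.14 to 0.14 (adjusted p = 0.983). Its sign turned with library totals in place of TMM (0.060) and with a filter of 1 CPM in 3 mice (0.0053).

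The C1q subunits, whose 3 chains assemble into 1 complement recognition protein, did not pass the test either. C1qa had 36.1, 29.6 and 33.5 CPM in Control SC mice, 30.5, 32.8 and 29.7 in CBP-ifKO SC mice, 37.5, 27.4 and 39.4 in Control EE mice, and 32.7, 30.7 and 33.5 in CBP-ifKO EE mice. C1qb had 41.3, 33.8 and 38.9 CPM in Control SC mice, 35.4, 35.1 and 30.9 in CBP-ifKO SC mice, 38.7, 35.7 and 40.1 in Control EE mice, and 34.2, 35.8 and 37.0 in CBP-ifKO EE mice. C1qc had 34.5, 30.05 and 34.9 CPM in Control SC mice, 30.6, 31.4 and 30.2 in CBP-ifKO SC mice, 35.4, 28.7 and 37.6 in Control EE mice, and 32.1, 33.0 and 35.5 in CBP-ifKO EE mice. For each subunit the genotypes overlapped in both housings, and Control SC replicate 2 and Control EE replicate 2 were the lowest controls of their housing. The averaged log2 fold changes were -0.13 for C1qb (95% interval -0.25 to -0.01, adjusted p = 0.119), -0.10 for C1qa (-0.26 to 0.06, adjusted p = 0.425) and -0.06 for C1qc (-0.20 to 0.07, adjusted p = 0.555). C1qb passed without Control SC replicate 2 (adjusted p = 0.0311), and C1qa without Control EE replicate 2 (adjusted p = 0.0422). The value of C1qc was 1.5e-05 with library totals only.

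**Figure D2:**
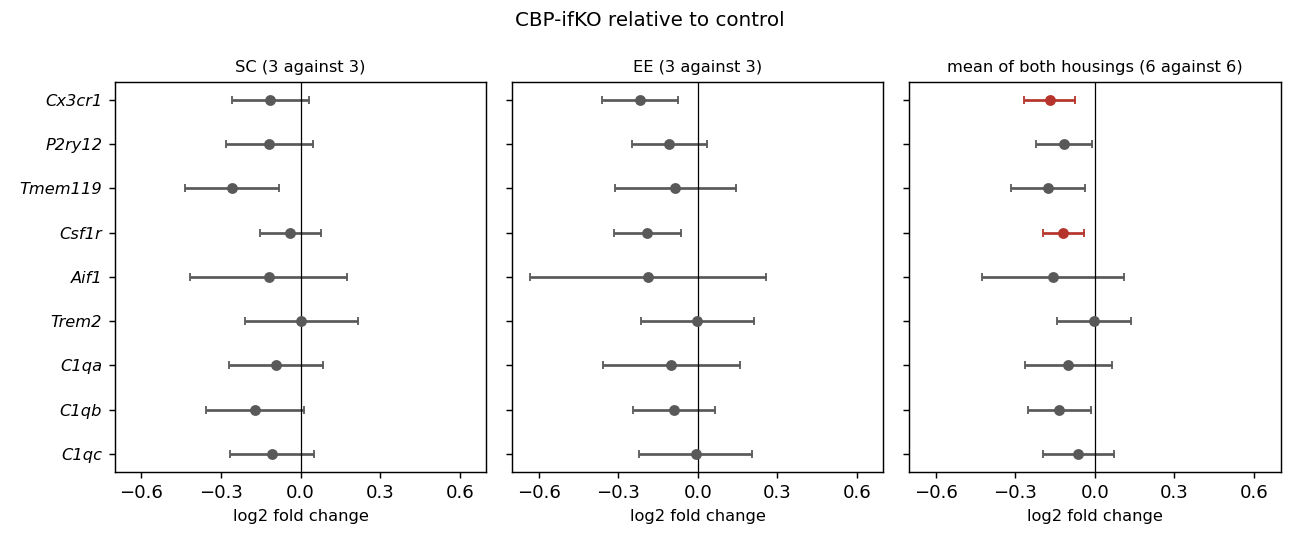
Log2 fold change of CBP-ifKO relative to control mice for each microglia gene in SC, in EE and averaged over both housings, with 95% intervals as bars and red for adjusted p under 0.05. Cx3cr1 (-0.17) and Csf1r (-0.12) are the red points of the averaged comparison, and no member is red within SC or EE alone.

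Within SC alone, 0 of 9 members passed the threshold, where 5.52% of all 17532 genes were called and 4.02% fell. Tmem119 came nearest, with a log2 fold change of -0.26 (95% interval -0.44 to -0.08, unadjusted p = 0.00811 and adjusted p = 0.0912 in edgeR). It was the only member with an unadjusted p under 0.05, which 3593 of the 17532 genes had. Without Control SC replicate 2 Tmem119 passed (-0.31, adjusted p = 0.0359). The SC median of the 9 members was -0.11, against 0.00 over all genes tested, and it was -0.067 without CBP-ifKO SC replicate 3. With library totals it was -0.064, against 0.049 over all genes. DESeq2 called no member in SC. Over all genes 264 rose and 704 fell in SC, and 607 rose and 480 fell with library totals.

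Within EE alone, 0 of 9 members passed, where 4.57% of all 17625 genes were called and 3.53% fell. Here 2 members had an unadjusted p under 0.05, as did 3448 of the 17625 genes. The 2 were Cx3cr1 at -0.22 (95% interval -0.36 to -0.07, unadjusted p = 0.00665, adjusted p = 0.0887 in edgeR) and Csf1r at -0.19 (-0.31 to -0.06, unadjusted p = 0.00661, adjusted p = 0.0885). DESeq2 called 1 member, Csf1r (adjusted p = 0.0456). Csf1r passed as well when its spread was estimated over all 12 mice (adjusted p = 0.0295), as did Cx3cr1 (adjusted p = 0.0454). Leaving out Control EE replicate 2 gave the same call for Csf1r (-0.23, adjusted p = 0.0283). Over all genes 182 rose and 623 fell in EE, and 524 rose and 425 fell with library totals. The EE median of the 9 members was -0.10, against 0.01 over all genes. It was -0.18 without Control EE replicate 2, -0.045 without Control EE replicate 1 and -0.048 without Control EE replicate 3. With library totals it was -0.034, against 0.080 over all genes. The test of the difference between the housings called none of these genes.

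Housing changed no member past the threshold. In control mice 0 of 9 members were called, and 0.0% of the 18251 genes, of which 768 had an unadjusted p under 0.05. The members' log2 fold changes in EE relative to SC lay between -0.17 (Tmem119, 95% interval -0.37 to 0.03) and 0.07 (C1qa, -0.16 to 0.31), and every member's SC and EE controls overlapped. No member had an unadjusted p under 0.05 there. DESeq2 called no member in controls either.

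In CBP-ifKO mice 0 of 9 members were called, against 0.011% of all genes, of which 1567 had an unadjusted p under 0.05. Csf1r was 95.6 to 102 CPM in SC and 86.8 to 89.7 in EE, without overlap, for a log2 fold change of -0.16 (95% interval -0.27 to -0.05, unadjusted p = 0.00772, adjusted p = 0.447 in edgeR). Cx3cr1 was 48.2 to 55.7 CPM in SC and 44.3 to 48.6 in EE, overlapping, at -0.17 (-0.30 to -0.03, unadjusted p = 0.0177, adjusted p = 0.491 in edgeR). C1qc lay the other way without overlap, at 30.2 to 31.4 CPM in SC and 32.1 to 35.5 in EE, with 0.13 (-0.06 to 0.31, adjusted p = 0.720 in edgeR). The other 6 members overlapped between the housings. The share of all genes that separate in this way is not given here, so the separations of Csf1r and C1qc are descriptions only.

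The test of whether the housing effect differs between genotypes called 0 of 9 members and 0.0% of all genes, of which 574 had an unadjusted p under 0.05. Csf1r had the smallest p of the members, with a difference of -0.16 on the log2 scale (95% interval -0.31 to -0.01, unadjusted p = 0.0424, adjusted p = 1.0 in edgeR). The interval for Trem2 was -0.29 to 0.27 and for Aif1 -0.61 to 0.46, so that differences within these bounds are not excluded. Averaged over genotypes, EE again called 0 of 9 members, against 0.164% of all genes, of which 1723 had an unadjusted p under 0.05. Cx3cr1 was the only member with an unadjusted p under 0.05 in that comparison (-0.11, 95% interval -0.21 to -0.02, unadjusted p = 0.0241, adjusted p = 0.444 in edgeR). DESeq2 called no member in the CBP-ifKO, interaction or averaged housing comparisons.

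**Figure D3:**
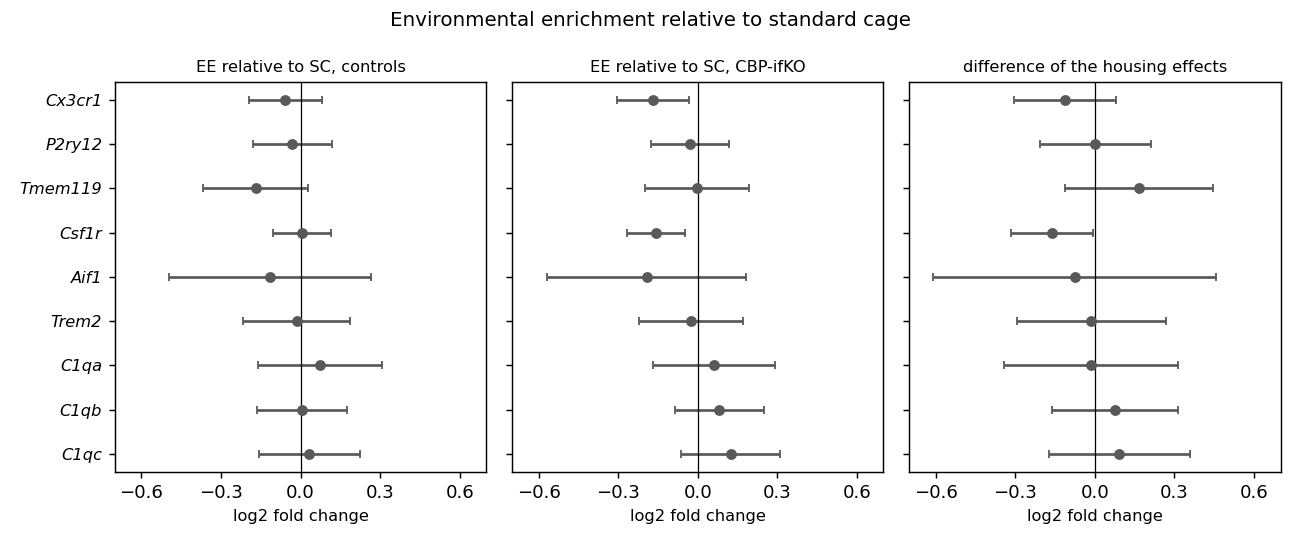
Log2 fold change of EE relative to SC for each microglia gene in control mice and in CBP-ifKOs, and the difference between these effects, with 95% intervals as bars. No member passed the threshold, and Csf1r (-0.16) and Cx3cr1 (-0.17) in CBP-ifKOs and Csf1r in the difference (-0.16) are the points whose intervals lie below 0.

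Across individual mice the members fell into pairs that moved together. After group means were removed, C1qa and C1qc correlated at r = 0.93 over the 12 mice, C1qb and C1qc at 0.77, C1qa and C1qb at 0.73, and Cx3cr1 and Csf1r at 0.84. Tmem119 went with C1qa at 0.84 and C1qc at 0.81, less with C1qb at 0.54, and stood at 0.04 with Cx3cr1. Trem2 went with C1qa at 0.66 and C1qc at 0.60 and against Cx3cr1 at -0.34. Of the 36 pairs 33 were positive, with a median r of 0.38. These are descriptions over 12 libraries whose members share depth and scaling, and a single mouse bears on several of them: Control EE replicate 2 was the lowest of all 12 mice for Tmem119, Trem2, C1qa and C1qc, but not for Cx3cr1, P2ry12, Csf1r, Aif1 or C1qb.

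**Figure D4:**
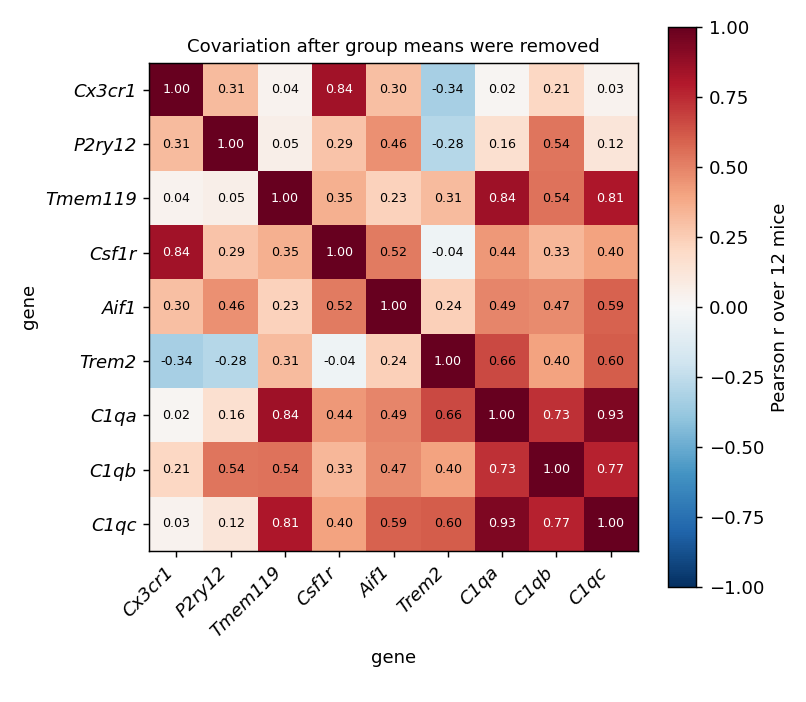
Pearson r between the log2 CPM of each pair of microglia genes over 12 mice after the mean of each group was removed, colored from -1 (blue) to 1 (red). The 3 C1q genes have high values among themselves (0.73 to 0.93), Tmem119 is high with C1qa (0.84) and C1qc (0.81) but not with C1qb (0.54), Cx3cr1 and Csf1r are at 0.84, and Trem2 is at -0.34 with Cx3cr1.

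The genes most like the members, by r of log2 CPM with the mean of the 9 members over the 12 mice, were Mgat4b at 0.96, Kcns3 at 0.95, Pcmt1 at 0.94, D930048N14Rik and Bin1 at 0.93, Ppp1r37, Snx3, Cxcl14 and Kctd2 at 0.92 and Selplg at 0.91. Selplg was the single one of these 10 in the list of other homeostatic microglia genes. After group means were removed, the 10 were Gm4793 at 0.99, Fam131c at 0.98, Ube2h and Tmem41a at 0.97, Cdh15 and Naprt at 0.96, Shisa4, Arfrp1, Msrb2 and Kcns3 at 0.95, and Kcns3 was on both lists. The 25 other homeostatic genes had a median r of 0.63 over the 12 mice, against 0.00 for the 18242 genes tested outside the members, and 10 border macrophage genes one of -0.23. Lists of other cells also lay above 0, with medians of 0.78 for the 3 receptor ligands, 0.50 for oligodendrocyte precursors, 0.48 for interneurons and 0.40 for excitatory neurons. After group means were removed the medians were 0.54 for the homeostatic genes, 0.54 for interneurons, 0.51 for excitatory neurons, 0.70 for the ligands, -0.0025 for oligodendrocyte precursors and -0.11 for astrocytes.

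Other genes of the same cells gave small counts of the same kind. Of 25 further homeostatic microglia genes, 6 fell and 0 rose in CBP-ifKOs averaged over housings, where 10.3% of all genes fell and 16.9% were called in either direction, with a median log2 fold change of -0.14 against 0.00 over all genes and -0.12 for the 9 members. They were Tgfbr1, a receptor for the TGF-beta that keeps microglia mature (37.9 ± 2.79 CPM in controls and 32.3 ± 1.63 in CBP-ifKOs, SD, n = 6, log2 fold change -0.23), P2ry13, another ADP receptor (-0.26), Olfml3, a secreted matrix protein (-0.26), Selplg, the P-selectin ligand (-0.20), Csf3r, the G-CSF receptor (-0.27), and Ltc4s, a leukotriene synthase at 0.810 ± 0.157 CPM in controls (-0.86). Tgfbr1 and several others are also expressed outside microglia. Within SC alone 2 of the 25 fell, Olfml3 (-0.39) and Tgfbr1 (-0.31), and in EE 0 were called by edgeR, with 6 at an unadjusted p under 0.05.

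The ligands of these receptors come mostly from other cells. Il34, the neuronal ligand of CSF1R, fell from 53.5 ± 4.5 CPM in controls to 44.1 ± 1.58 in CBP-ifKOs (SD, n = 6, log2 fold change -0.28, adjusted p = 0.00181 by edgeR). Cx3cl1, the neuronal ligand of CX3CR1, fell from 567 ± 37.2 to 508 ± 24.0 CPM (-0.16, adjusted p = 0.0221 by edgeR). Csf1, the other ligand of CSF1R, was at 32.4 ± 1.97 and 32.1 ± 3.14 CPM (-0.02, adjusted p = 0.822 by edgeR). Of the 3 ligand genes 2 thus fell and 0 rose, where 10.3% of all genes fell and 16.9% were called. In SC alone Il34 fell (-0.32), and no ligand was called for housing.

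Among 12 myeloid transcription factors 2 fell and 0 rose, Bhlhe41 (-0.34), a helix-loop-helix repressor, and Cebpb (-0.45), a C/EBP factor, and the median was -0.09. A count of 2 of 12 is near the 16.9% of all genes called, against which the next lists are set as well. Spi1, which encodes PU.1, was at 2.78 ± 0.486 CPM in controls and 2.53 ± 0.412 in CBP-ifKOs (-0.13, adjusted p = 0.60). Of 9 tested genes of TREM2 signaling 1 rose, the kinase subunit Pik3cd (0.26), and 1 fell, Apoe (-0.15), a lipid carrier made largely by astrocytes, with a median of -0.10. Tyrobp, the adaptor of TREM2, was at 14.2 ± 1.33 and 13.3 ± 1.02 CPM (-0.10, adjusted p = 0.418). None of the 6 genes of P2RY12 signaling passed in edgeR, where 1 had an unadjusted p under 0.05 (Rasa3, -0.12), and the median was -0.06.

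The counts of the following lists, in the averaged genotype effect, stand against 6.64% of all genes that rose, 10.3% that fell and 16.9% called in either direction. Of 20 tested complement genes other than C1q, 1 fell and 0 rose, Masp1 (-0.35), a protease of the lectin pathway, and the median was 0.07. Of 21 tested genes of the disease-associated program, 1 rose and 4 fell, with a median of -0.09. Ctsl, a lysosomal protease, rose (0.22), and Fth1, the ferritin heavy chain (-0.23), Lpl, a lipase (-0.25), Gpnmb (-0.48) and Apoe fell. Ctsl, Fth1 and Apoe are made by many cell types of the hippocampus. None of 19 lysosomal and phagocytic genes passed in edgeR, where 1 had an unadjusted p under 0.05, and the median was -0.02. Of 10 antigen presentation genes 2 rose and 0 fell, H2-D1, a class I heavy chain (0.32), and Tap1, a peptide transporter subunit (0.36), with a median of 0.26. The signs of this list differed by housing, a difference that was not tested for the list: in SC the median was -0.11 with 6 of 10 genes below 0, and in EE it was 0.45 with 9 of 10 above 0, with 0 called by edgeR in either and 2 and 4 genes at an unadjusted p under 0.05. Of 14 tested interferon genes 1 rose, Stat2 (0.19), while 9 of the 14 lay below 0 and the median was -0.060. In SC the interferon median was -0.21 with 12 of 14 below 0 and 6 at an unadjusted p under 0.05, of which edgeR called Stat2 alone, and in EE it was 0.0017 with 7 of 14 below 0. Of 12 tested inflammatory genes 1 fell, Nlrp3 (-0.63), the inflammasome sensor, at 1.10 ± 0.177 CPM in controls. Within 1 housing alone, Bhlhe41 (-0.44) and Masp1 (-0.51) fell and Ctsl (0.20) and Stat2 (0.26) rose in SC, and Ctsl (0.26) and Nfkbia (0.33), an inhibitor of NF-kappaB, rose in EE. Of 4 tested transcripts of proliferating cells 1 fell, Mki67 (-0.61), and 0 rose. No gene of these microglia lists was called for housing or for the interaction.

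**Figure D5:**
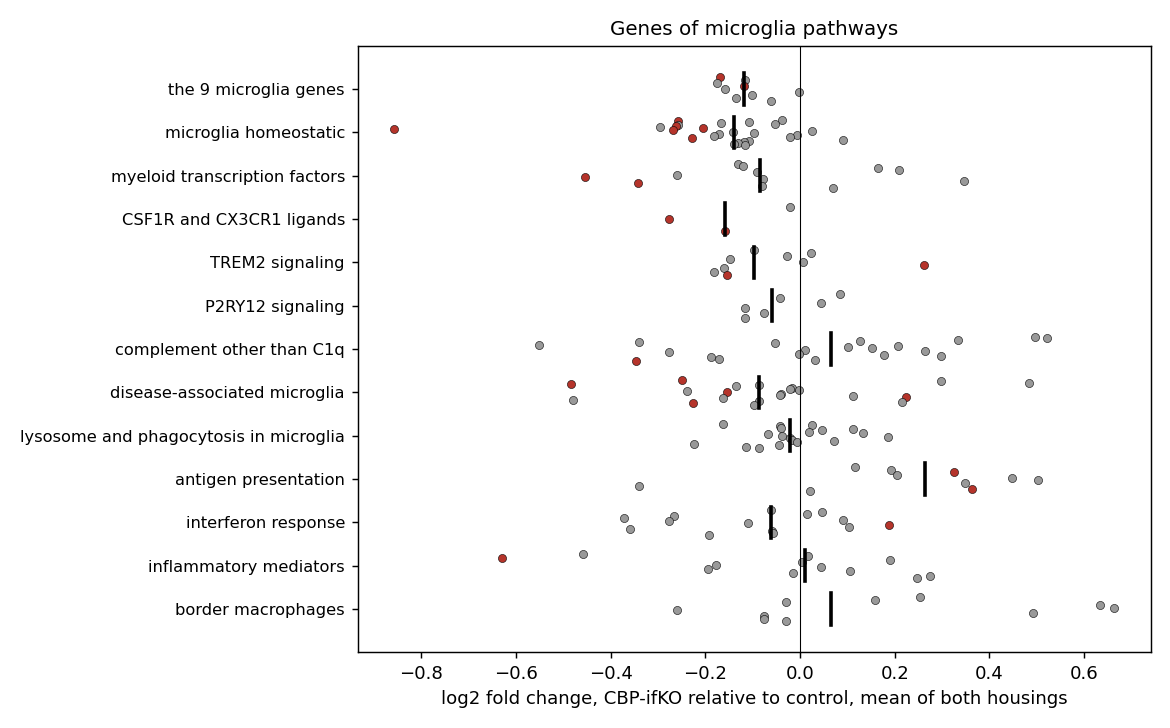
Log2 fold change of CBP-ifKO relative to control mice, averaged over both housings, for the 9 microglia genes and for genes of related lists, with a circle for each gene, red for adjusted p under 0.05 and a black bar for the median of the list. The medians run from -0.16 for the receptor ligands to 0.26 for antigen presentation, with -0.12 for the 9 microglia genes.

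Markers of other cells moved with genotype as well. Border macrophages share Csf1r, Cx3cr1 and the C1q genes with microglia, and of the 10 tested of their 11 markers 0 were called (2 at an unadjusted p under 0.05 in edgeR), with summed levels of 39.5 to 47.9 CPM in controls and 37.6 to 59.3 in CBP-ifKOs and none of the 11 at 0 in all mice. Among these markers Mrc1 was at 2.31 ± 0.886 CPM in controls and 2.76 ± 1.77 in CBP-ifKOs (SD, n = 6), and Cd163 at 0.987 ± 0.353 and 1.2 ± 0.783. Levels of different genes in CPM do not measure shares of cells. The border macrophage markers lay on opposite sides by housing: in SC 8 of 8 tested had a genotype log2 fold change below 0 (median -0.24), and in EE 9 of 9 lay above 0 (median 0.88), with 0 called by edgeR and 4 at an unadjusted p under 0.05. These markers were measured in the same few mice. Their summed levels overlapped, at 41.5 to 47.9 CPM in Control SC and 37.6 to 44.4 in CBP-ifKO SC mice. In EE they were 39.5 to 42.8 CPM in controls and 38.3 to 59.3 in CBP-ifKOs. The interaction called 0 of the 10 in edgeR, with 3 at an unadjusted p under 0.05. Of 7 tested blood cell genes 0 were called, and 0 had an unadjusted p under 0.05. Of 10 astrocyte genes 5 fell and 0 rose (summed 5141 to 5800 CPM in controls, 4664 to 5136 in CBP-ifKOs), of 5 oligodendrocyte precursor genes 4 fell (147 to 170 and 118 to 136 CPM), of 10 oligodendrocyte genes 0 were called (1 at an unadjusted p under 0.05 in edgeR), and of 8 excitatory neuron genes 4 fell (2655 to 3210 and 2409 to 2673 CPM). Of 6 interneuron genes Vip rose (0.21) and Sst fell (-0.33), of 10 endothelial genes Kdr fell (-0.31), of 8 genes of pericytes and fibroblasts Rgs5 fell (-0.20), and of 5 tested choroid plexus genes Ttr fell (-2.99), the list that set Control EE replicate 1 apart. Endothelial genes lay below 0 in 10 of 10 cases in SC and above 0 in 7 of 10 in EE, and Col1a1, a fibroblast collagen, rose in EE (0.72). These counts stand against 10.3% of all genes that fell. The summed level of the 9 microglia genes was 319 to 359 CPM in controls and 307 to 335 in CBP-ifKOs, which overlapped. The part of these other cells in the differences of the microglia genes was not tested.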

How the data were processed

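Hippocampal RNA of 12 mice was sequenced as single-end reads of 50 bases, in 2 runs per mouse that the authors merged, so that the columns hold 1 value per mouse. Per the methods and the submitters' processing notes, reads were checked with FastQC 0.11.8, trimmed with Trim Galore 0.6.4, aligned to GRCm38 with STAR 2.6.1, kept above a mapping quality of 10 and counted on exons with Rsubread. The authors deposited unnormalized read counts for every gene, together with the length over which each was counted, which comes from the annotation. These steps were not repeated here. Names and positions come from the GENCODE annotation and promoters from RefSeq, both of GRCm38, which differ in the start of some genes. Groups follow the titles in the labels.

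Counts were tested with edgeR 4.0.16 in R 4.3.3, with TMM factors, edgeR's expression filter, the quasi-likelihood test and Benjamini-Hochberg adjustment over all genes at 0.05. The genotypes were compared within the 6 mice of each housing, and the other comparisons were fitted on all 12 mice. Standard errors and 95% intervals come from the same fits. CPM use TMM-scaled totals, and correlations use log2 CPM with a prior count of 2. P-values measure the spread between these mice. The precision of a level is set by its counts and by that spread.

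The members and gene lists were chosen with earlier results of these data known. The text names the 9 members, Crebbp, list genes past the threshold or otherwise among the 4 with the smallest p, and the 10 genes most like the members. Spi1, Tyrobp, Csf1, Mrc1, Cd163 and the neighbors of Csf1r were named outside that rule. Alternatives were DESeq2 1.42.0, other scalings and filters, the CBP-ifKO counts halved, a fit with replicate number as block, fits on other sets of mice, and fits without each mouse in turn. The procedure was tested on simulated data with known changes, all larger than those of the members. That simulation did not include the even counts of the CBP-ifKO libraries, so it does not bear on changes of the members' size.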

Additional observations from a re-analysis of the deposited data

How the results depend on the processing

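Of 63 log2 fold changes of members (9 genes in 7 comparisons), 41 kept their sign under every alternative tried, and the values that turned sign were uncalled. The cause of each change below was not tested. The count of called members in the averaged genotype effect was 2, and became 0 with library totals only, 1 without a filter on low counts, and 0 (without CBP-ifKO SC replicate 3) to 4 (without Control EE replicate 2) when a mouse was left out. DESeq2, its size factors, a filter of 1 CPM in 3 mice, halved CBP-ifKO counts and the replicate block each gave 2. In the EE genotype effect the count of 0 became 1 with DESeq2, 1 without a filter, 2 with the spread of all 12 mice and 0 to 1 when a mouse was left out, and in the SC genotype effect 0 to 1. The housing and interaction counts of members were 0 under each alternative. Over all genes, calls ranged over the alternatives from 399 to 1908 in the SC genotype effect (968 as reported), 285 to 1677 in EE (805), 2459 to 4212 averaged (3082), 0 to 145 for housing in controls (0), 0 to 247 in CBP-ifKOs (2), 0 to 110 for the interaction (0) and 7 to 334 for averaged housing (30). The correlations of same-numbered mice lay between -0.067 and 0.30, and those of differently numbered mice between -0.25 and 0.14. These ranges overlap, so they do not decide whether the replicate numbers pair the mice. The block changed no count of members. Uncalled log2 fold changes that turned sign were, with library totals only, Csf1r in the SC genotype effect (0.013), Trem2 in the EE genotype effect (0.065), C1qc in the EE genotype effect (0.058), Csf1r in housing in controls (-0.0079), C1qb in housing in controls (-0.0067), Tmem119 in housing in CBP-ifKOs (0.010), Trem2 in the interaction (0.011), C1qa in the interaction (0.0094), Trem2 in the averaged genotype effect (0.060) and C1qc in the averaged genotype effect (1.5e-05). With no filter on low counts it was Trem2 in the SC genotype effect (-0.0091). With the replicate block it was Trem2 in the EE genotype effect (0.0024). With a filter of 1 CPM in 3 mice it was Tmem119 in housing in CBP-ifKOs (3.0e-04) and Trem2 in the averaged genotype effect (0.0053). With a fit of 6 mice it was Tmem119 in housing in CBP-ifKOs (0.0017). With DESeq2 it was P2ry12 in the interaction (-1.2e-04). With DESeq2's size factors it was P2ry12 in the interaction (-4.1e-04). With halved CBP-ifKO counts it was P2ry12 in the interaction (-0.0017). Values that turned sign when a mouse was left out ranged in the SC genotype effect from -0.045 to 0.075 for Trem2. In the EE genotype effect they ranged from -0.059 to 0.069 for Trem2, -0.25 to 0.0039 for C1qa and -0.12 to 0.076 for C1qc. In housing in controls they ranged from -0.019 to 0.038 for Csf1r, -0.29 to 0.019 for Aif1, -0.080 to 0.054 for Trem2, -0.025 to 0.22 for C1qa, -0.072 to 0.070 for C1qb and -0.047 to 0.14 for C1qc. In housing in CBP-ifKOs they ranged from -0.11 to 0.029 for P2ry12, -0.046 to 0.047 for Tmem119 and -0.085 to 0.013 for Trem2. In the interaction they ranged from -0.078 to 0.060 for P2ry12, -0.21 to 0.097 for Aif1, -0.080 to 0.055 for Trem2, -0.16 to 0.087 for C1qa and -0.012 to 0.17 for C1qc. In the averaged genotype effect they ranged from -0.031 to 0.031 for Trem2. In averaged housing they ranged from -0.053 to 0.014 for Trem2.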
